A study of Mus musculus with 5 samples.

Results

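The genes described here are 9 that act in blood clotting and clot removal: the clotting genes F8, Vwf and F3, the anticoagulant genes Thbd, Procr and Tfpi, and the plasminogen activation genes Plat, Plau and Plaur. They were taken by gene symbol from a count table of 27843 genes, and all 9 were found and passed the filter on low counts that left 15874 genes to test. The RNA came from lymphatic endothelial cells (LECs), the cells that line the lymph sinuses, sorted from lymph nodes of C57BL/6 mice at 8 weeks of age as CD31+ podoplanin+ cells without CD45 or TER119. The 3 control libraries came from mice with both copies of Rankl flanked by loxP sites (Rankl flox/flox). The 2 knockout libraries came from mice that also carried Ccl19 Cre, so both groups share the floxed alleles and differ by the Cre. Cre driven by Ccl19 acts in stromal cells that express this chemokine and not by design in LECs, and the comparison asks how LEC transcripts differ when the stroma lacks RANKL. How many mice went into a library is not given, so p-values measure the spread between these 5 libraries, which may be technical.

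Clotting starts when tissue factor, the product of F3, meets plasma factor VII, and it is amplified by factor VIII, a cofactor that circulates bound to von Willebrand factor. Endothelium restrains it through tissue factor pathway inhibitor and through thrombomodulin and the endothelial protein C receptor, which together turn thrombin into an activator of protein C. Clots are dissolved by plasmin, which tissue-type and urokinase-type plasminogen activators cut from plasminogen, the latter held at the cell surface by its receptor. Endothelial cells, those of lymphatic vessels included, are a known source of factor VIII, and lymph itself can clot.

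Libraries held between 52839375 and 70171307 counts. Levels are given as CPM, counts scaled to a common library size, and 1 CPM equals 52.0 to 71.0 reads. Of 10 lymphatic endothelial markers, all measured in both groups, 2 were higher, 2 were lower and 6 did not pass. Pecam1 (CD31), which all endothelium carries, averaged 1330 ± 8.43 CPM over the controls (SD, n = 3) and 1330 ± 25.4 CPM over the knockouts (SD, n = 2). Prox1, the lymphatic fate factor, fell from 1459 ± 103 to 868 ± 22.9 CPM (log2 fold change -0.75 ± 0.11, SE, adjusted p = 0.019), as did Itga9, an integrin gene (-0.69 ± 0.10). Mmrn1, which encodes multimerin 1, rose by 1.56 ± 0.25, and so did the chemokine gene Ccl21a (3.79 ± 0.57), whose near-identical copies make its count uncertain. Tnfsf11, which encodes RANKL, had 27, 13 and 9 reads in controls 1 to 3 and 9 and 0 reads in knockouts 1 and 2, which cannot serve as a check of a deletion placed in other cells. For Tnfrsf11a, the gene of its receptor RANK, the difference was a log2 fold change of 0.03 ± 0.13 (SE). In such sorted pools, fewer cells of a type and less RNA per cell cannot be told apart.

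In the knockout LECs F8 fell while Vwf, Plat and Plaur rose, and the 3 anticoagulant genes did not pass the test. F8 was at 0.496 of its control level, and the genes that rose were 1.95-fold to 2.12-fold higher. Of the 9 genes, 3 were higher and 1 was lower once p-values of edgeR's quasi-likelihood test were adjusted over all 15874 genes (Benjamini-Hochberg, threshold 0.05), beside 7.24% of all tested genes called in either direction, 3.25% higher and 3.99% lower. In 5 of the 9, F8, Vwf, F3, Plat and Plaur, both knockout libraries lay on one side of all controls, as in 45.4% of all tested genes. The median log2 fold change, knockout minus control, was 0.96 over the 9 genes and -0.0015 over all tested genes. Before adjustment, 4198 of the 15874 genes had a p under 0.05 with edgeR, the share to set beside such counts below.

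**Figure D1:**
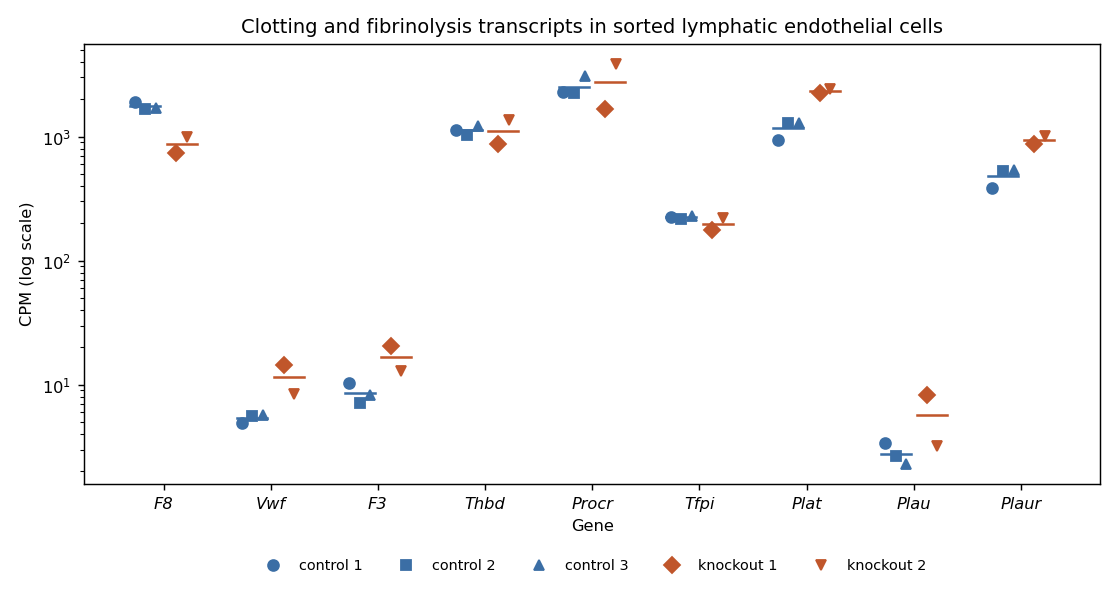
CPM (vertical axis, log scale) of the 9 clotting and fibrinolysis genes (horizontal axis), 1 point per library, with 3 controls in blue, 2 knockouts in orange and a bar at each group mean. The F8 points of both knockouts lie below all controls, those of Vwf, F3, Plat and Plaur lie above them, and those of Thbd, Procr, Tfpi and Plau overlap with the controls.

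The genes spanned a wide range of levels. Scaled to exon length, Procr was the most abundant transcript in controls at 1245 ± 223 CPM per kb of exon (SD, n = 3), followed by Thbd at 301 ± 24.9. Plat (188 ± 33.2), Plaur (184 ± 32.5) and F8 (177 ± 14.4) came next and did not differ from each other beyond their spread. Tfpi stood at 40.8 ± 0.949 CPM per kb. F3 (3.41 ± 0.630), Plau (1.17 ± 0.232) and Vwf (0.337 ± 0.0258) formed the low end. In the knockouts Plat (373 ± 19.9, SD, n = 2) and Plaur (360 ± 38.3) stood above Thbd (300 ± 90.7) in mean, within the spread of Thbd, and F8 was at 87.6 ± 18.6 CPM per kb.

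F8 encodes factor VIII, the cofactor whose loss causes haemophilia A, and was the one of the 9 genes that fell (ENSMUSG00000031196, chromosome X, 75172715 to 75382615, minus strand, mm10). It stood at 1914, 1653 and 1684 CPM in controls 1, 2 and 3 and at 737 and 998 CPM in knockouts 1 and 2. Both knockouts were below the lowest control, knockout 1 the further. The mean went from 1750 ± 142 CPM (SD, n = 3) to 867 ± 184 CPM (SD, n = 2). On the log2 scale the difference was -1.01 ± 0.16 (SE; adjusted p = 0.021 by edgeR). F8 passed without knockout 1 (-0.82) and without knockout 2 (-1.25). Those fits leave 1 knockout, assumed to vary like the controls, so passing in them, for F8 and the genes below, carries little weight. F8 did not pass without control 1 (-0.94, adjusted p = 0.063), control 2 (-1.05, adjusted p = 0.066) or control 3 (-1.04, adjusted p = 0.094). Over all genes, 266, 173 and 11 passed in the fits without these controls, against 1150 with all libraries.

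The F8 promoter is shown because F8 was the only one of the 9 genes that fell. RefSeq (GRCm38.p6) places it at chrX:75379992-75380291 on the minus strand, 250 bases before to 50 after a start that lies inside the GENCODE gene. It was searched on both strands for 6 motifs, and their shares are given over 32851 promoter windows of the same length. AP-1, spelled TGANTCA, was in 7.81% of windows, and the cyclic AMP response element, spelled TGACGTCA, was in 1.79%. Sp1, spelled GGGCGG, was in 35.7%, and the CACCC box, spelled CCACCC, was in 31.5%. The TATA motif, spelled TATAAA, was in 13.6%, and the kappaB decamer, also searched as a letter pattern, was in 1.62%. The F8 window had 0 matches, so no base is in capitals, and its GC content was 42.3% against a median of 52.7% over all windows.
F8: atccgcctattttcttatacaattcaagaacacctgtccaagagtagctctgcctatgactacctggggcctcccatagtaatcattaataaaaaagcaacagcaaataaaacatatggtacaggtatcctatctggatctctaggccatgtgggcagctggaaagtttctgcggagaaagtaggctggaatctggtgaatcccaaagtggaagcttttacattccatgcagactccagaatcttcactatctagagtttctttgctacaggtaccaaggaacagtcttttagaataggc

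Vwf encodes von Willebrand factor, the carrier of factor VIII and a tether for platelets, and was a low transcript in these cells (ENSMUSG00000001930, chromosome 6, 125546774 to 125686679, plus strand). It stood at 4.94, 5.59 and 5.72 CPM in controls 1, 2 and 3 and at 14.5 and 8.49 CPM in knockouts 1 and 2, from 297 to 794 reads a library. Both knockouts were above all controls. The log2 fold change was 1.09 ± 0.24 (SE; edgeR, adjusted p = 0.043), a 2.12-fold rise. It was 0.64 without knockout 1, where the call was lost (adjusted p = 0.073), and the call was also lost without control 1 (1.02), control 2 (1.11) or control 3 (1.12), with library totals alone (adjusted p = 0.055) and with limma-voom (adjusted p = 0.056).

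Since F8 fell and Vwf rose, the 2 transcripts came closer together. Per kb of exon, F8 exceeded Vwf by 628-fold, 479-fold and 478-fold in controls 1, 2 and 3 and by 82.4-fold and 191-fold in knockouts 1 and 2. All libraries of either group therefore held far more F8 than Vwf transcript.

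Vwf is also a marker of blood endothelium, and 8 of 13 other blood endothelial markers rose and 0 fell (median log2 fold change 1.31). The 4 with the smallest p were Gpihbp1 (1.31 ± 0.12, SE), Aqp7 (2.67 ± 0.30), Cd34 (1.94 ± 0.23) and Ly6a (1.43 ± 0.19). The summed level of all 13 was 2817 to 3144 CPM in controls and 3228 and 4188 CPM in knockouts 1 and 2, and without Plvap, the most abundant of them, 297 to 362 CPM in controls against 441 and 560 CPM. The summed level was thus highest in knockout 2, and Vwf was highest in knockout 1. Single markers went either way. Gpihbp1 (17.9 and 16.3 CPM in knockouts 1 and 2) and Aqp7 (5.72 and 4.97 CPM) were higher in knockout 1. Cd34 (63.3 and 80.5 CPM) and Ly6a (22.9 and 26.5 CPM) were higher in knockout 2. No blood endothelial marker was at 0 in any library, and the lowest, Esm1, stood at 0.370 CPM in controls. Of 6 markers of high endothelial venules, where Vwf is also known to be made, Ackr1 and Ubd rose and Madcam1 fell, and their summed level was 776 to 1270 CPM in controls and 784 and 513 CPM in knockouts. The part of these cells in the Vwf level was not tested.

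F3 encodes tissue factor, the cell-surface trigger of clotting (ENSMUSG00000028128, chromosome 3, 121723537 to 121735048, plus strand). It stood at 10.3, 7.19 and 8.31 CPM in controls 1, 2 and 3 and at 20.6 and 12.9 CPM in knockouts 1 and 2. Both knockouts lay above all controls, yet the log2 fold change of 0.96 ± 0.24 (SE) did not pass (edgeR, adjusted p = 0.058). It passed with DESeq2 (adjusted p = 0.0034), with no filter on low counts (adjusted p = 0.036), with a filter at 1 CPM (adjusted p = 0.047) and without knockout 2 (1.25, adjusted p = 0.014), and it was 0.58 without knockout 1.

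Tissue factor is typical of fibroblasts and pericytes around vessels. Of 9 markers of fibroblastic reticular cells, the stromal cells of the node, 0 passed with edgeR, DESeq2 or limma-voom (1 at an unadjusted p under 0.05 with edgeR, median log2 fold change 0.53). Their summed level was 331 to 485 CPM in controls, 1074 CPM in knockout 1 and 477 CPM in knockout 2. Of 11 pericyte and smooth muscle markers, Acta2 and Kcnj8 rose and 0 fell (median 0.69), with a summed level of 107 to 143 CPM in controls and 174 and 137 CPM in knockouts 1 and 2. Without Dcn, the most abundant fibroblastic marker, that sum was 96.9 to 257 CPM in controls and 382 and 145 CPM in knockouts 1 and 2. Without Rgs5, the pericyte sum was 58.8 to 68.5 CPM in controls and 130 and 88.6 CPM in knockouts 1 and 2. Lum and Ccl19 were highest in control 1 and Cxcl13 in control 3, the other fibroblastic markers in knockout 1. F3, Vwf and Plau each had their highest value in knockout 1, the library with the highest summed level of both marker lists. The part of these cells in the 3 transcripts was not tested.

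The anticoagulant genes were abundant and did not separate the groups. Thbd encodes thrombomodulin (ENSMUSG00000074743, chromosome 2, 148404466 to 148408188, minus strand, a single exon). Its levels were 1134, 1024 and 1208 CPM in controls 1, 2 and 3 and 878 and 1355 CPM in knockouts 1 and 2. The knockouts thus lay on either side of the control range, and the log2 fold change was -0.01 ± 0.19 (SE, adjusted p = 0.99), from -0.36 without knockout 2 to 0.27 without knockout 1.

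Procr, which encodes the endothelial protein C receptor (ENSMUSG00000027611, chromosome 2, 155751117 to 155755471, plus strand), showed the same arrangement with a wider spread. It stood at 2288, 2246 and 3051 CPM in controls 1, 2 and 3 and at 1682 and 3845 CPM in knockouts 1 and 2, the lowest and the highest value of the 5. The log2 fold change was 0.13 ± 0.33 (SE, adjusted p = 0.84), -0.59 without knockout 2 and 0.60 without knockout 1. Per kb of exon, Procr exceeded Thbd by 3.70-fold to 4.63-fold in controls and by 3.51-fold and 5.20-fold in knockouts 1 and 2.

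Tfpi encodes the inhibitor of the tissue factor and factor VIIa complex (ENSMUSG00000027082, chromosome 2, 84432855 to 84476775, minus strand). It was the steadiest of the 9 in controls, at 223, 218 and 228 CPM, with 176 and 222 CPM in knockouts 1 and 2. Knockout 2 lay within the control range and knockout 1 below it, and the log2 fold change was -0.16 ± 0.12 (SE, adjusted p = 0.42). Per kb of exon, Thbd exceeded F3, which starts the process that thrombomodulin restrains, by 74.5-fold to 98.6-fold in controls and by 28.9-fold and 71.4-fold in knockouts 1 and 2. The ratio was thus lower in both knockouts than in any control, by little in knockout 2. It was not tested, and neither gene passed.

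Plat and Plaur rose together. Plat encodes tissue-type plasminogen activator, which endothelial cells secrete (ENSMUSG00000031538, chromosome 8, 22757727 to 22782844, plus strand). It stood at 936, 1291 and 1299 CPM in controls 1, 2 and 3 and at 2240 and 2416 CPM in knockouts 1 and 2. Both knockouts were far above the highest control and close to each other. The mean went from 1175 ± 207 CPM (SD, n = 3) to 2328 ± 124 CPM (SD, n = 2). On the log2 scale the difference was 0.99 ± 0.16 (SE; adjusted p = 0.023 by edgeR).

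Plaur encodes the urokinase receptor, a lipid-anchored protein that places urokinase at the cell surface (ENSMUSG00000046223, chromosome 7, 24462484 to 24475968, plus strand). It stood at 384, 527 and 534 CPM in controls 1, 2 and 3 and at 870 and 1012 CPM in knockouts 1 and 2. As for Plat, control 1 was the lowest and knockout 2 the highest. The log2 fold change was 0.97 ± 0.16 (SE; edgeR, adjusted p = 0.025). Without control 2 and without control 3 both genes lost their call, at 1.06 and 1.06 for Plat (adjusted p = 0.069 and 0.094) and 1.04 and 1.04 for Plaur (adjusted p = 0.070 and 0.094), while both passed without control 1, knockout 1 or knockout 2.

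Plau encodes urokinase, the ligand of that receptor (ENSMUSG00000021822, chromosome 14, 20836660 to 20843385, plus strand), and was a low transcript. It stood at 3.37, 2.64 and 2.29 CPM in controls 1, 2 and 3 and at 8.31 and 3.18 CPM in knockouts 1 and 2. Knockout 2 lay within the control range, and the log2 fold change of 1.05 ± 0.40 (SE) did not pass (adjusted p = 0.15). It was 0.19 without knockout 1 and passed without knockout 2 (1.58, adjusted p = 0.014). Per kb of exon, receptor exceeded ligand transcript by 103-fold to 211-fold in controls and by 94.7-fold and 288-fold in knockouts 1 and 2.

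The likeness of Plat and Plaur was close. Among 10689 protein-coding genes with a mean log2 CPM of at least 1, Plaur was the gene with the smallest root mean square difference from Plat in mean-centred log2 CPM over the 5 libraries (0.036). Tnfrsf12a, the receptor of the cytokine TWEAK (0.057), and the proton-sensing receptor gene Gpr4 (0.057) followed. For F8 the nearest were Fmnl1 (0.047), which encodes an actin-nucleating formin, the transcription factor gene Zeb2 (0.056) and Hs3st3b1 (0.069), a heparan sulfate sulfotransferase gene. For Vwf they were Cyb561 (0.041), Clip3 (0.068) and Scube1 (0.093). These distances rest on 5 libraries and are a description only.

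The promoters of Plaur and of Anxa2, a further gene of plasmin formation that rose, are shown with that of Procr, which did not pass, because all 3 held an AP-1 match. They lie at chr7:24462233-24462532 (Plaur), chr9:69453433-69453732 (Anxa2) and chr2:155750967-155751266 (Procr), all on the plus strand (RefSeq, GRCm38.p6), and capitals mark matches to the 6 motifs named for F8. Counted in bases from the start, the AP-1 match began at -69 in Plaur, -95 in Anxa2 and -154 in Procr. The F3 window, at chr3:121723287-121723586, held 2 AP-1 matches, at -146 and -135. Plaur had 3 Sp1 matches, the last pair overlapping by 1 base, Anxa2 had 3 Sp1, 3 CACCC and 1 TATA match, and Procr had 1 CACCC match. Of the 9 genes, 5 had a promoter in the table used, and Vwf, Thbd, Plat and Plau did not. Nor did S100a10, a further listed gene that rose. The window of F2, the prothrombin gene, which fell, also held an AP-1 match, at -180. The windows of Serpind1 and Entpd1, further listed genes that rose, of F8 and F5, which fell, and of Tfpi held no AP-1 match. An AP-1 match was thus held by some of the genes that rose, a gene that fell and genes that did not pass.
Plaur: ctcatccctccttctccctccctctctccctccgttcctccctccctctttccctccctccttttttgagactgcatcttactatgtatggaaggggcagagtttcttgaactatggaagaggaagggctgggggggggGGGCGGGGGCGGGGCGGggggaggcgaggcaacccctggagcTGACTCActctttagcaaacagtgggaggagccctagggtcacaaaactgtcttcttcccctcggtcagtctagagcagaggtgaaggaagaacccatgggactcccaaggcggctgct
Anxa2: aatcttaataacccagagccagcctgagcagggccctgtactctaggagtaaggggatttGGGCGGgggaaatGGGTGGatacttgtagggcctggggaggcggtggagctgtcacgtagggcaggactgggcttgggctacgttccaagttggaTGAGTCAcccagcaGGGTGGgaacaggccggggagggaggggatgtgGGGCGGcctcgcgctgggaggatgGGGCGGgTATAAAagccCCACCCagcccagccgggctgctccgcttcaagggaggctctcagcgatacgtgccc
Procr: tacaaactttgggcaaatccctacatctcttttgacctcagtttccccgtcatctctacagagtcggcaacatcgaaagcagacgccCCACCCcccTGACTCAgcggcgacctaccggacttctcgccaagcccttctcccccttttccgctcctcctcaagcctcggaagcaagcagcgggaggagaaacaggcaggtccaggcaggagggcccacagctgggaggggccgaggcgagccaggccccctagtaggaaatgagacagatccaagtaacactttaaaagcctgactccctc

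**Figure D2:**
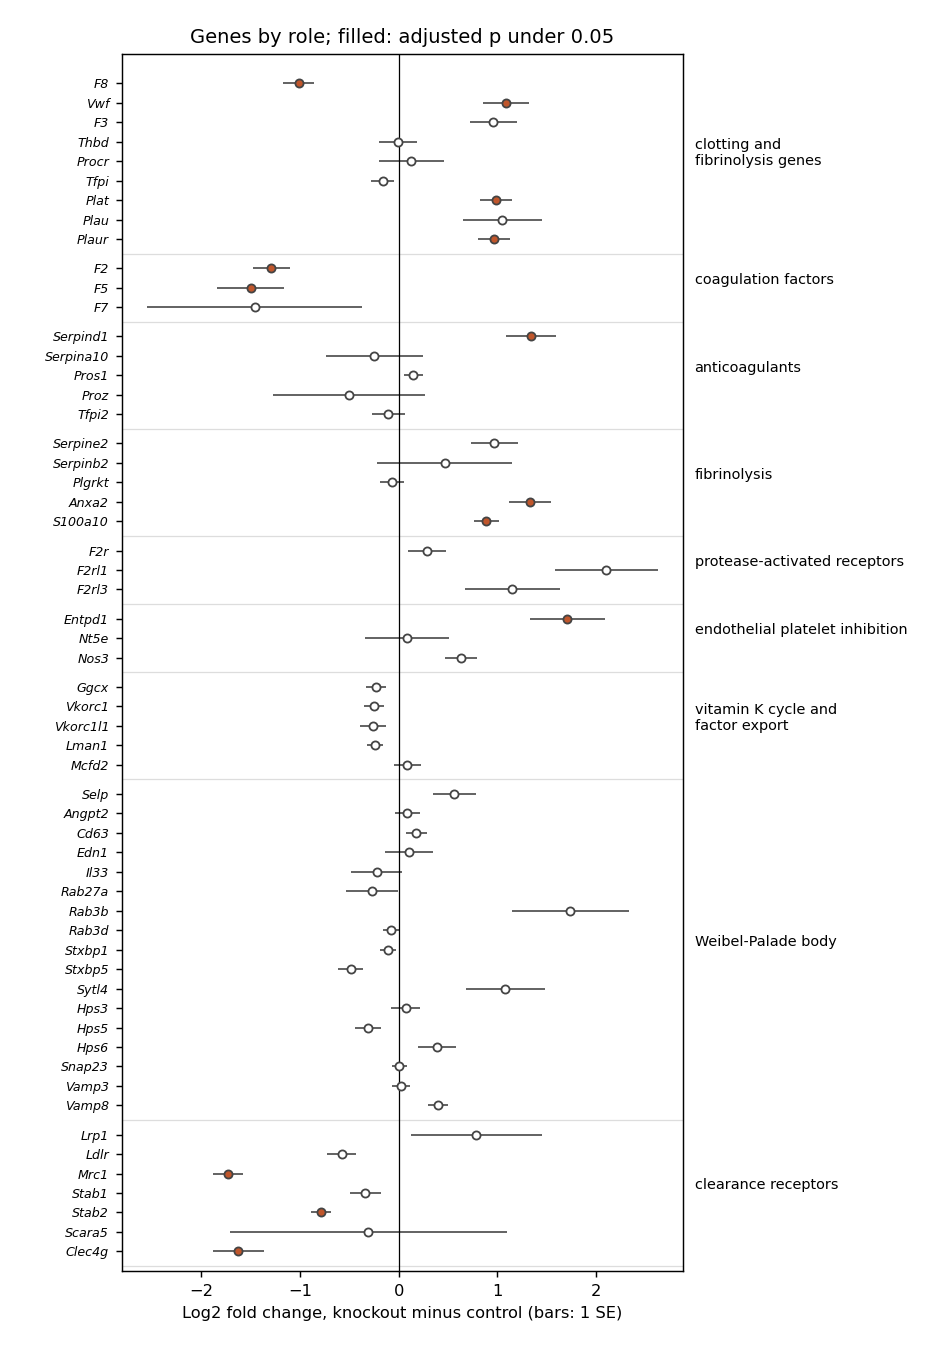
Log2 fold change, knockout minus control (horizontal axis, bars of 1 SE), of the 9 genes and of 48 tested genes of 8 further lists (vertical axis, grouped by role). Filled points passed an adjusted p of 0.05 over all genes. Plat, Plaur, Anxa2 and S100a10 lie right of 0, and F8, F2 and F5 left of it.

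The other genes of plasmin formation and its control were taken from a list of 10, of which 6 were tested, with 2 higher and 0 lower (median log2 fold change 0.68). The 2 that rose encode partners in a surface complex that binds tissue-type plasminogen activator and plasminogen. Anxa2, which encodes annexin A2, went from 481, 821 and 731 CPM in controls 1, 2 and 3 to 1751 and 1658 CPM in knockouts 1 and 2 (log2 fold change 1.33 ± 0.21, SE, adjusted p = 0.022). S100a10, which encodes its partner p11, went from 134, 176 and 163 CPM to 304 and 278 CPM (0.89 ± 0.13, adjusted p = 0.018). Both lost their call without control 3 (1.39 and 0.91), and Anxa2 also without control 2 (1.49, adjusted p = 0.052).

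Serpine2, which encodes a protease nexin, an inhibitor of thrombin and of plasminogen activators, did not pass. It stood at 48.7, 68.0 and 45.6 CPM in controls and at 130 and 81.4 CPM in knockouts (0.97 ± 0.24, adjusted p = 0.057). Both Serpine2 knockouts lay above all controls, and the gene passed with DESeq2 (adjusted p = 0.0013), the newer quasi-likelihood fit, a filter at 1 CPM, the length and GC offset and without knockout 2. Plg, which encodes plasminogen itself, had at most 8 reads in a library.

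Among 15 plasma clotting factor genes, 12 were analysed here and 3 were tested, with 0 higher and 2 lower. F2, which encodes prothrombin, stood at 10.2, 8.57 and 9.37 CPM in controls 1, 2 and 3 and at 3.31 and 4.37 CPM in knockouts 1 and 2. Both knockouts were below all controls (log2 fold change -1.29 ± 0.19, SE, adjusted p = 0.019), and the call was lost without control 1 (-1.22), control 2 (-1.35) or control 3 (-1.30). F5, which encodes factor V, the cofactor related to factor VIII, stood at 7.56, 15.5 and 8.16 CPM in controls and at 3.74 and 3.61 CPM in knockouts (-1.50 ± 0.34, adjusted p = 0.047). F5 lost its call when any single library was left out (-1.68 without control 1, -1.09 without control 2, -1.65 without control 3, -1.53 without knockout 1 and -1.48 without knockout 2), with limma-voom (adjusted p = 0.079), with library totals alone (adjusted p = 0.055) and with the length and GC offset (adjusted p = 0.067), and 3.53% of its exon bases lie in the annotated gene Gm16548. The liver genes Fga, Fgg and F13b had 0 reads in all 5 libraries, which allows up to 0.0422 to 0.0577 CPM at a floor of 3 counts a library, for counting error only.

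Factor V is also stored in platelets. Of 10 platelet and megakaryocyte markers 6 were tested, and Pf4, Gp1ba and Clec1b fell with 0 higher (median log2 fold change -0.80). The summed level of the 10 was 1478 to 2066 CPM in controls and 1046 and 1297 CPM in knockouts 1 and 2, and without Itga2b, which LECs also carry, 83.7 to 109 CPM against 64.1 and 56.1 CPM. Of the defining platelet genes, Gp6 had 0 reads in every library and Ppbp at most 7. The part of platelets in the F5 level was not tested.

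Of 9 further anticoagulant genes, 8 were analysed here and 5 were tested, with 1 higher and 0 lower (median log2 fold change -0.10). Serpind1, which encodes heparin cofactor II, a thrombin inhibitor, rose from 2.41, 1.67 and 1.62 CPM in controls 1, 2 and 3 to 4.86 and 4.76 CPM in knockouts 1 and 2 (1.34 ± 0.25, SE, adjusted p = 0.030). It lost its call without control 1 (1.55, adjusted p = 0.0503), control 2 (1.25) or control 3 (1.23). Pros1, which encodes protein S, the partner of activated protein C, was abundant at 668 ± 1.87 CPM over the controls (SD, n = 3) and averaged 741 ± 61.6 CPM over the knockouts (SD, n = 2), without passing (0.15 ± 0.10, adjusted p = 0.38).

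Thrombin and related proteases act on cells through protease-activated receptors. Of 4 such genes, 3 were tested and 0 passed with edgeR (2 at an unadjusted p under 0.05, 1 passed with DESeq2, 0 with limma-voom). Among all 15874 tested genes, 4198 had an unadjusted p under 0.05 with edgeR. F2r, the thrombin receptor gene, went from 764 ± 182 to 931 ± 10.8 CPM (0.29 ± 0.20, adjusted p = 0.40). F2rl1 was at 2.99, 3.77 and 3.29 CPM in controls, with its higher knockout value, 23.3 CPM, in knockout 1 (adjusted p = 0.058). It passed with DESeq2, with a filter at 1 CPM and without knockout 2. Of 4 genes by which endothelium holds platelets in check, 3 were tested and Entpd1 rose, from 1.38, 2.24 and 1.66 CPM to 3.56 and 7.94 CPM (1.71 ± 0.38, adjusted p = 0.046). Entpd1 encodes the ectoenzyme CD39, which breaks down ATP and ADP, and it lost its call without control 1 (1.56), control 2 (1.92), control 3 (1.67) or knockout 2 (1.01), with limma-voom (adjusted p = 0.060) and with the length and GC offset (adjusted p = 0.054).

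None of the tested genes for making, exporting and storing these factors passed with edgeR. For comparison, 4198 of all 15874 tested genes had an unadjusted p under 0.05 with edgeR, and 2707 passed with DESeq2. Of 5 genes of the vitamin K cycle and of factor export, 0 passed with edgeR (2 at an unadjusted p under 0.05, 1 passed with DESeq2, 0 with limma-voom; median log2 fold change -0.24). Lman1 and Mcfd2, which encode the paired cargo receptor that carries factors V and VIII out of the endoplasmic reticulum, had log2 fold changes of -0.24 ± 0.08 (SE) and 0.09 ± 0.14. Of 19 genes of Weibel-Palade bodies, the endothelial granules that hold von Willebrand factor, 17 were tested and 0 passed with edgeR (6 at an unadjusted p under 0.05, 2 passed with DESeq2, 0 with limma-voom; median 0.07). The most abundant were Il33 (2150 ± 248 CPM in controls, -0.22 ± 0.26, SE) and Cd63 (513 ± 28.5 CPM, 0.18 ± 0.11), and Selp, which encodes P-selectin, was at 0.56 ± 0.22 (adjusted p = 0.16).

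A list of clearance receptors included genes that fell. Some of the receptors are known to clear factor VIII, von Willebrand factor or tissue-type plasminogen activator from fluid. Whether Clec4g, also listed, clears any of these proteins was not tested. Of 10 listed, 7 were tested, with 0 higher and 3 lower (median log2 fold change -0.58). Mrc1, the mannose receptor gene, went from 218, 215 and 167 CPM in controls 1, 2 and 3 to 56.1 and 64.5 CPM in knockouts 1 and 2 (-1.73 ± 0.15, SE, adjusted p = 0.0095). Stab2, which encodes stabilin 2, went from 2178, 2238 and 2072 CPM to 1225 and 1283 CPM (-0.79 ± 0.10, adjusted p = 0.015), and Clec4g from 143, 157 and 165 CPM to 34.6 and 65.8 CPM (-1.63 ± 0.26, adjusted p = 0.022). Mrc1 kept its call with any 1 library left out, Stab2 lost it without control 2 (-0.76) or control 3 (-0.82), and Clec4g without control 1 (-1.68), control 2 (-1.62) or control 3 (-1.58).

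**Figure D3:**
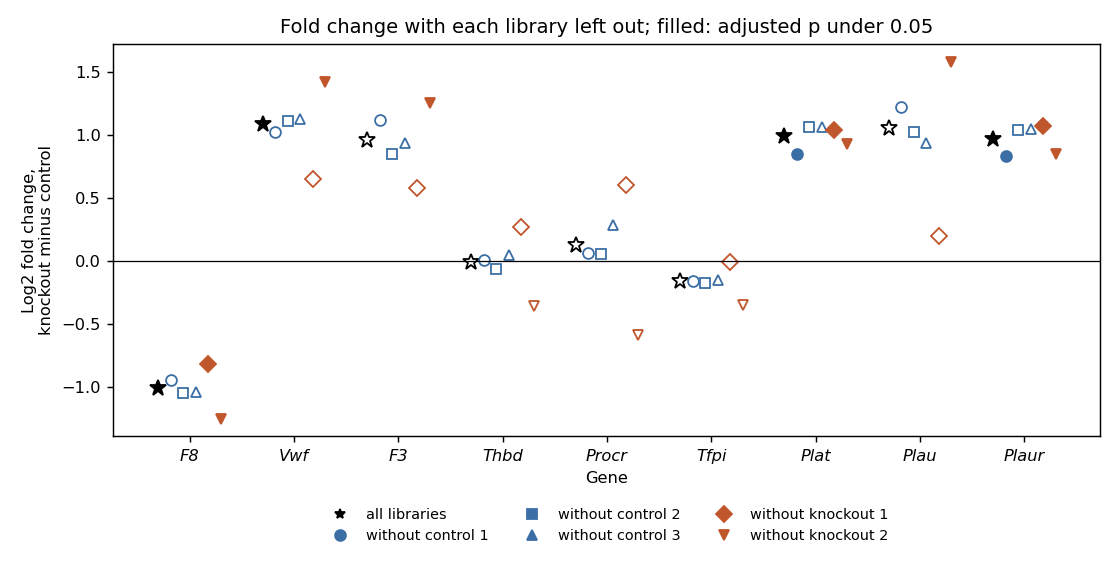
Log2 fold change, knockout minus control (vertical axis), of the 9 genes (horizontal axis) with all libraries (star) and with each library left out (other symbols), filled where the adjusted p was under 0.05. Plat (0.85 to 1.06) and Plaur (0.83 to 1.07) stay within a narrow range, and Procr (-0.59 to 0.60) and Plau (0.19 to 1.58) move the most.

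The knockout libraries differed from each other in a way that divided the 9 genes. Plat and Plaur were close in the knockouts, at 2240 and 2416 CPM and at 870 and 1012 CPM, with knockout 1 the lower for both. Procr, Thbd, Tfpi and F8 were also lower in knockout 1 than in knockout 2, and Vwf, F3 and Plau were higher in it. Leaving out a library moved the fold change of Plat between 0.85 and 1.06 and that of Plaur between 0.83 and 1.07, whereas F8 ranged from -1.25 to -0.82, Vwf from 0.64 to 1.42 and F3 from 0.58 to 1.25. The spread of Procr in the knockouts (1530 CPM, SD, n = 2) was larger than that in the controls (453 CPM, SD, n = 3).

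**Figure D4:**
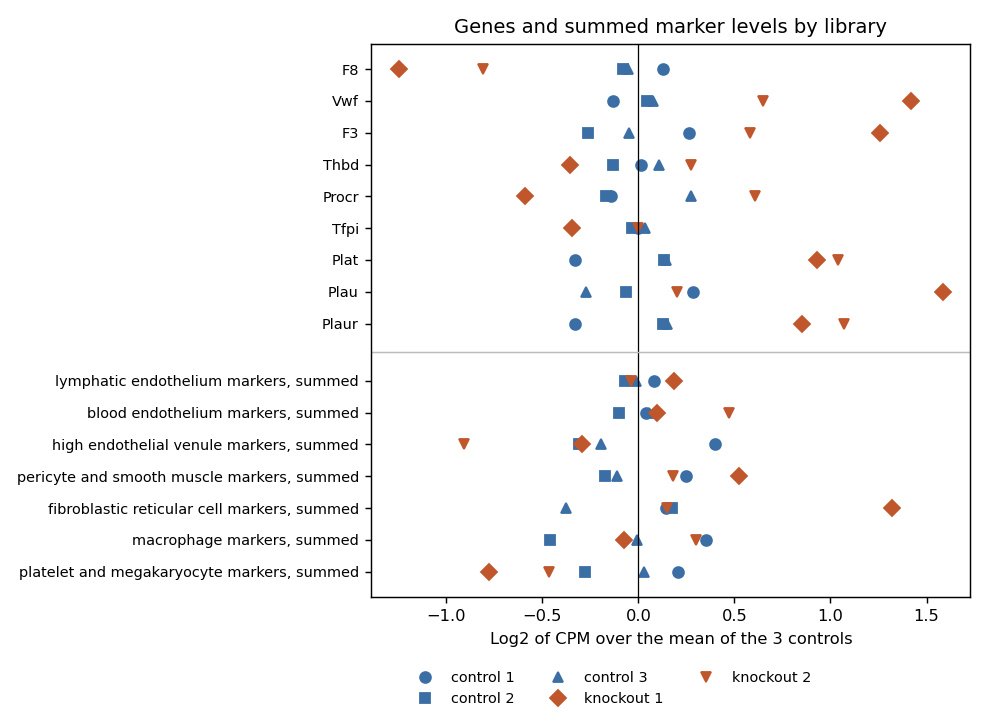
Log2 of CPM over the mean of the 3 controls (horizontal axis) for each of the 9 genes and for the summed CPM of 7 cell type marker lists (vertical axis), 1 point per library. Knockout 1 (diamonds) has the highest Vwf, F3 and Plau and the highest summed fibroblastic reticular cell level, at 1074 CPM, and Plat and Plaur are high in both knockouts.

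Urokinase and its receptor are also typical of macrophages. Of 12 macrophage markers 1 rose (Adgre1) and 2 fell (Csf1r and Mpeg1), and the summed level was 328 to 577 CPM in controls and 429 and 556 CPM in knockouts 1 and 2. Without Cd14, the most abundant, it was 49.9 to 53.1 CPM in controls and 44.4 and 43.3 CPM in knockouts, against 384 to 534 CPM in controls and 870 and 1012 CPM in knockouts for Plaur alone. Adgre1, which defines mouse macrophages, had 0 reads in all controls and 15 and 20 reads in knockouts 1 and 2. It thus passed the filter on low counts only through the knockouts, so its call carries little weight. The part of macrophages in the Plau and Plaur levels was not tested.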

How the data were processed

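The authors deposited raw read counts per Ensembl gene, 1 column per library, per the file headers. CD31+ podoplanin+ CD45- TER119- cells were sorted, and SMART-Seq v4 and Nextera XT libraries were read as single ends, per the labels' protocols; these kits do not mark strand. Build mm10 and the tools HTSeq 0.6.1, TopHat2 2.0.14, bcl2fastq 2.17.1.14 and Bowtie2 2.1.0 are listed in the submitters' processing notes, with settings and multi-mapping rules not given in the sources used here. Symbols, positions and exon lengths came from GENCODE M21 (same build; 27648 of 27843 genes matched), and 0 exon bases of the 9 genes lay in another annotated gene.

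Counts were tested across all genes with edgeR 4.0.16 in R 4.3.3 (filterByExpr with minimum count 10, TMM, robust legacy quasi-likelihood fit, no block), two-sided, with Benjamini-Hochberg adjustment at 0.05. The SE is the log2 fold change over the square root of F. The test was checked on simulated counts of the same design. Alternatives were RLE factors, library totals, limma-voom (limma 3.58.1), DESeq2 1.42.0, 2 other low-count filters (none, and 1 CPM in 2 libraries), edgeR's newer fit, a replicate block, a length and GC offset (loess, span 0.5, on exon length and transcript GC) and each library left out; with 1 knockout left, that library is assumed to vary like the controls.

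The 9 genes, the 8 pathway lists and the 7 marker lists were chosen with earlier results of these data known. Named were the 9 genes, Tnfsf11, Tnfrsf11a, list members that passed (at most 5 a pathway list, 4 a marker list), the 2 most abundant of a pathway list with none, markers at or near 0, and the 3 nearest genes, on log2(CPM + 0.1), of the 3 called members with the largest change. Serpine2, Plg, Pros1, Selp, the liver genes, and the motifs and promoters shown were chosen after values were seen. Of the listed genes, F11, Fgb, Klkb1, Proc and Rab46 were not analysed here, and 1 tested gene of the fibrinolysis list is counted but not reported by name. Reads carry no molecular identifiers, so counting limits such as the floor cover counting error only.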

Additional observations from a re-analysis of the deposited data

How the results depend on the processing

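Of the 9 genes, 4 passed with all libraries. The count was 0 with the replicate block in edgeR (5 at an unadjusted p under 0.05), 5 with DESeq2, 3 with limma-voom and 0 to 6 across the leave-one-out fits, with 0 without control 2 and without control 3 (5 each at an unadjusted p under 0.05). Of the genes of the 8 further lists, 9 passed, against 16 with DESeq2, 0 with the replicate block (18 unadjusted) and 1 to 14 across those fits. Over all genes, 1150 passed, against 2707 with DESeq2, 746 with the length and GC offset, 0 with the replicate block (2808 unadjusted) and 11 to 1736 across those fits. Without control 2, 3185 of all 15429 tested genes had an unadjusted p under 0.05, and without control 3, 2975 of 15613 did. These are the shares to set beside the 5 of 9 genes in the same fits. The share of higher genes among those called was 44.9% (516 higher, 634 lower) and 54.0% with the offset (403 and 343). With the offset, the 9 genes still had 3 higher and 1 lower. Whether same-numbered libraries share a litter or day is not stated. Their deviations from the group mean correlated across genes at 0.048 and -0.052. Because the 2 knockouts were centred on their own mean, their deviations mirror each other, so these values cannot show whether libraries are paired. The block also leaves control 3 without a partner.

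Signs changed for values near 0. Thbd was at 0.0012 with the filter at 1 CPM, 0.0172 with the replicate block and -0.36 to 0.27 when single libraries were dropped. Procr ranged from -0.59 to 0.60 and Tfpi2 from -0.21 to 0.0677, its value without control 2. F8, Vwf, F3, Tfpi, Plat, Plau and Plaur kept their sign in all 14 alternatives, with a call in 10 for F8, 11 each for Plat and Plaur, 7 for Vwf, 4 for F3, 1 for Plau and 0 for Tfpi. Counting error alone gives an SE of 0.0609 on the log2 scale for Vwf, 0.0490 for F3 and 0.0850 for Plau, against fitted SEs of 0.235, 0.237 and 0.400, and of 0.0119 or less for the other genes, so depth is not the main limit for any of the 9.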
